A study of Mus musculus with 23 samples.

Results

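The growth hormone, STAT5 and IGF1 axis of the mouse liver was followed through 10 genes, read from the probes that carry their names: the receptor gene Ghr, the transcription factor genes Stat5a and Stat5b, the secreted products Igf1, Igfals and Igfbp3, and the feedback inhibitors Cish, Socs1, Socs2 and Socs3. The array carried 21 probes for these 10 genes, out of 56605 probes in all. Of the 21, 19 passed the filter on dim probes and every gene kept at least 1, so all 10 entered the tests beside 21056 genes in total. The other 2, a second Igfbp3 probe and a further Socs2 probe, were too dim. Each gene was read from its brightest kept probe, which was well above background on all 23 arrays and saturated on none.

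Growth hormone reaches the liver in pulses from the pituitary. It binds its receptor on hepatocytes, the receptor-bound kinase JAK2 phosphorylates STAT5, and STAT5 enters the nucleus and turns on target genes. Among them are Igf1, which encodes most of the IGF1 that circulates, Igfals, whose product holds IGF1 and IGF-binding protein 3 in a stable complex in blood, and the SOCS family, whose proteins shut the receptor and its kinase off again. The pulse pattern differs between the sexes in rodents and sets most of the sex-biased expression of liver genes.

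The livers came from male C57BL/6J mice, wild type (WT) or lacking the pregnane X receptor (Pxr-/-). PXR is a nuclear receptor that senses drugs and steroids, and pregnenolone 16alpha-carbonitrile (PCN) is its classic rodent ligand. Mice were injected intraperitoneally each day for 4 days with corn oil (CONT) or with PCN in corn oil at 100 mg/kg, and were killed at zeitgeber time 6, which was 6 h after the final injection. The sample labels call the mice fed at that time, while the study's own text calls them semi-fasted. WT PCN was represented by 5 arrays and each of WT CONT, Pxr-/- CONT and Pxr-/- PCN by 6, with 1 mouse per array, total RNA of whole liver and 2 washing batches that each held all 4 groups. WT mice were purchased at 6 weeks of age and Pxr-/- mice, backcrossed to the same strain, had been bred in the local facility for 10 years, so genotype and colony cannot be told apart. Because whole liver was measured, fewer cells of a type and less RNA per cell cannot be told apart either.

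The PCN response itself was present in the arrays: Cyp3a11, the main PXR target, was 3.55 higher on the log2 scale after PCN in WT liver (limma adjusted p = 4.12e-10) and 0.31 higher in Pxr-/- liver (adjusted p = 0.431). The signal of the probe for Nr1i2, the gene that encodes PXR, differed by -0.03 on the log2 scale between Pxr-/- CONT and WT CONT (adjusted p = 0.977). The sources used here do not say whether that probe lies in the deleted part, so it does not check the genotype. All 23 arrays correlated with each other at 0.977 to 0.996.

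STAT5 dimers bind a palindrome with the letters TTCNNNGAA, the same on both strands. RefSeq promoter windows of the mouse (GRCm38.p6, 250 bases before to 50 bases after each annotated start) were available for 9 of the 10 genes. Among their 14 windows, 4 held the letters, in Cish, Socs3 and Igfals, against 8.3% of all 32851 windows of the same length. Only 0.457% of all windows held more than 1 copy, and the Cish window was among them. The stretches are shown because Cish and Socs3 are among the members whose levels varied most between mice or after PCN, as given further on, and the capitals mark the palindromes. A match of letters is a description of the sequence, not a binding site.
Cish, chr9:107296654-107296683, plus strand, with 1 copy beginning at the annotated start and 1 copy beginning 11 bases after it: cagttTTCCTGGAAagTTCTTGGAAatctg
Socs3, chr11:117969502-117969530, minus strand, beginning 154 bases before the start: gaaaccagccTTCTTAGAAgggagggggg
Igfals, window of the first annotated start, chr17:24877598-24877626, plus strand, beginning 236 bases before it: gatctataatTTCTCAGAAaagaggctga
Igfals, window of another annotated start, chr17:24878163-24878191, plus strand, beginning 58 bases before it: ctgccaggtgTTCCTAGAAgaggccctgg

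Across the axis, few members moved with PCN. A gene is said below to have risen or fallen where its limma adjusted p, taken over all kept probes, was at most 0.05, and to have been called where the change also exceeded 1.5-fold. In WT liver PCN raised Socs1 and lowered Igf1, so 2 of the 10 genes passed on p, where 24.1% of all genes did. Only Socs1 passed the fold threshold as well (1 of 10), where 6.18% of all genes did. In Pxr-/- liver 1 of 10 genes, Socs3, passed both thresholds, against a background of 2.28%, and no other member passed on p alone (background 6.86%). A single gene is 10% of the members, so neither count stands apart from its background. The median change of the 10 genes was -0.0023 on the log2 scale in WT liver (-0.0236 over all genes) and 0.0994 in Pxr-/- liver (-0.0122 over all genes). At an unadjusted p under 0.05 in limma the counts were 4 of 10 in WT and 3 of 10 in Pxr-/- liver. The share of all genes under that p was not computed, for these or for the like counts below. It is at least the share that passed on adjusted p (24.1% in WT, 6.86% in Pxr-/- liver). Counts at an unadjusted p are therefore not read as a result about the members or the lists.

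**Figure D1:**
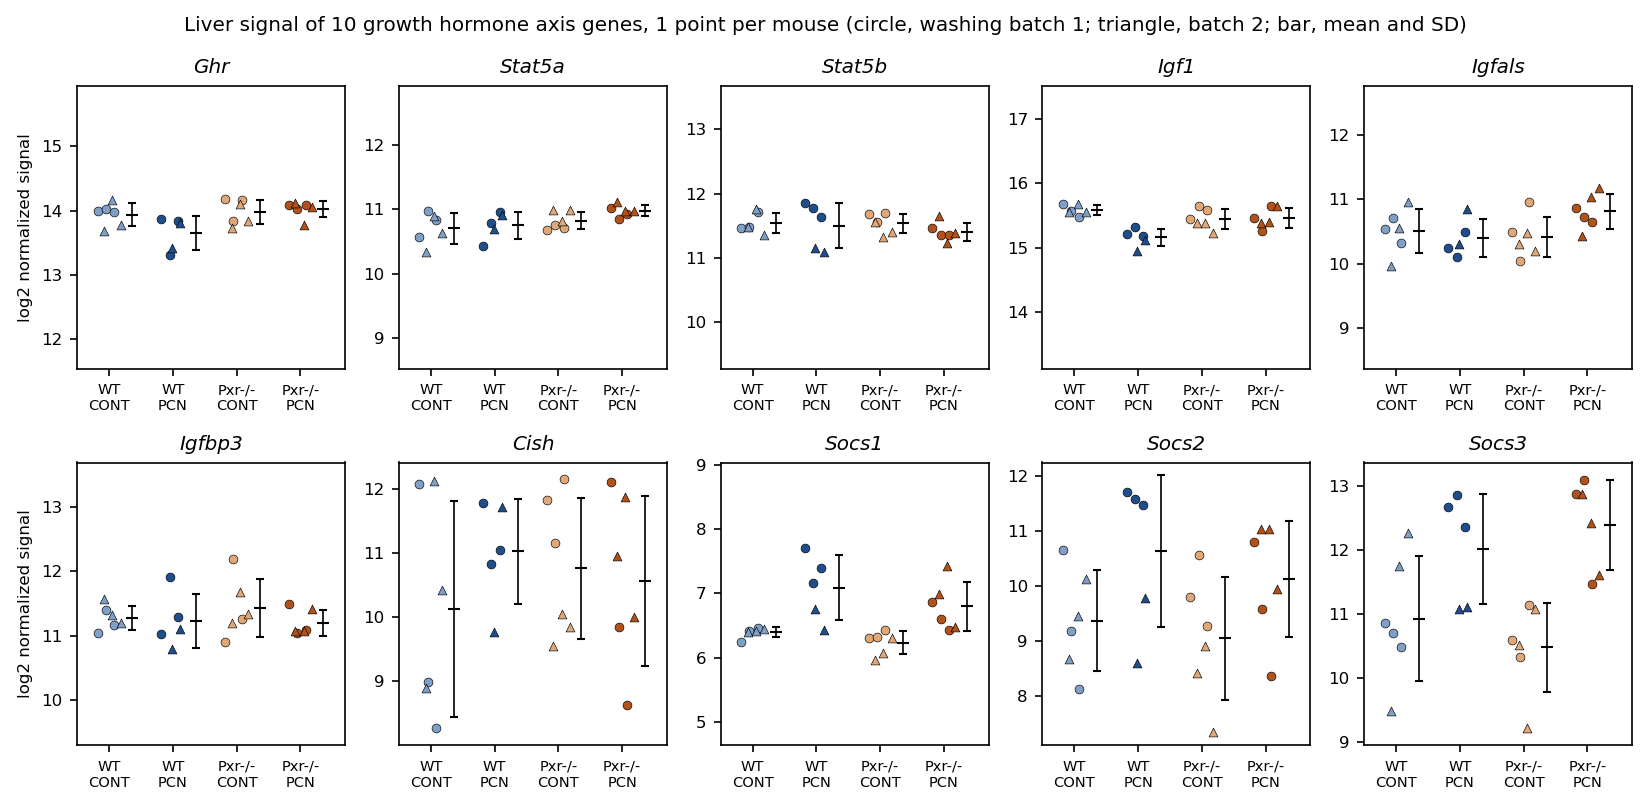
Normalized log2 signal (vertical axes, each spanning at least the same number of log2 units) of the 10 genes, with 1 point per mouse, circles for washing batch 1, triangles for batch 2, and a bar for the mean and SD of each group. Igf1 in WT PCN lay wholly below WT CONT, Socs3 in Pxr-/- PCN lay wholly above Pxr-/- CONT, and Cish ranged from 8.27 to 12.12 within WT CONT.

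Ghr, the entry point of the axis, read lower after PCN in WT liver by an amount at the edge of the test, and about the same in Pxr-/- liver. The Ghr probe (A_55_P2500473, mm9 chr15, from 3277543, minus strand) read 13.94 ± 0.18 on the log2 scale in WT CONT (SD, n = 6; lowest 13.69, median 13.99, highest 14.17). In the 5 WT PCN mice it read 13.87, 13.42, 13.81, 13.31 and 13.84, a mean of 13.65 ± 0.26 (SD, n = 5). Replicates 2 and 4 lay below every WT CONT mouse and the other WT PCN mice lay inside the WT CONT range. The change was -0.30 (SE 0.11, 95% CI -0.53 to -0.07) with an adjusted p of 0.0536 in limma, just outside the threshold. With 1 array left out at a time it ran from -0.37 to -0.20, and its adjusted p was below 0.05 without WT PCN replicate 1 or 3, WT CONT replicate 2 or Pxr-/- CONT replicate 2, and at most 0.175. With the deposited log2 values it was -0.08 (adjusted p = 0.676).

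Without PXR, Ghr read 13.98 ± 0.19 in CONT (SD, n = 6; lowest 13.74, median 13.98, highest 14.17) and 14.03 ± 0.12 in PCN (SD, n = 6; lowest 13.78, median 14.07, highest 14.11). These ranges overlapped almost entirely, and the change was 0.05 (adjusted p = 0.851). The difference between the PCN effects of the genotypes was -0.35 and did not pass (limma adjusted p = 0.293). Between the PCN-treated groups, Ghr was 0.39 higher in Pxr-/- mice (SE 0.11, 1.31-fold, adjusted p = 0.0351). That contrast was 0.10 with the deposited log2 values (adjusted p = 0.581), and its adjusted p was above 0.05 without 1 of 7 arrays, WT PCN replicates 2 and 4 and Pxr-/- PCN replicates 1, 2, 3, 5 and 6, where it ran from 0.29 to 0.40 (adjusted p up to 0.114).

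The other Ghr probes pointed the same way in WT liver but differed in size. Probe A_51_P499854 fell by 0.29 on the log2 scale (limma adjusted p = 0.0422) and was 0.52 higher in Pxr-/- PCN than in WT PCN (1.44-fold, adjusted p = 0.0028), with no overlap between those groups. Probe A_52_P633550 fell by 0.82 in WT liver (SE 0.26, adjusted p = 0.0236), which passed the fold threshold too. It also read 0.62 lower after PCN in Pxr-/- liver (-0.62, adjusted p = 0.132), and the difference of the effects was -0.20 (adjusted p = 0.852). Probe A_52_P680941, whose mapped ends lie 7453 bases apart, changed by -0.16 (adjusted p = 0.324). The probes lie at different places of the gene, and whether they read different transcripts was not tested.

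For neither STAT5 gene did a change pass the test. Stat5a (A_66_P115018, mm9 chr11, from 100745240) had means of 10.71 ± 0.24 and 10.76 ± 0.21 for WT CONT and WT PCN, then 10.83 ± 0.14 and 10.98 ± 0.09 for Pxr-/- CONT and Pxr-/- PCN (SD, n = 5 for WT PCN, otherwise n = 6). The PCN change was 0.05 in WT (limma adjusted p = 0.769) and 0.15 in Pxr-/- liver (adjusted p = 0.414). Stat5b, its neighbour on chromosome 11 (A_55_P2031043, from 100642045), read 11.54 ± 0.16, 11.50 ± 0.35, 11.54 ± 0.15 and 11.40 ± 0.14 in the same order of groups. WT PCN replicates 2 and 3, both of washing batch 2, read 11.16 and 11.10, below every WT CONT mouse. The change was -0.06 in WT (adjusted p = 0.757) and -0.13 in Pxr-/- liver (adjusted p = 0.508). The array reads transcript level only, and the activity of STAT5 is set by phosphorylation, which it cannot show.

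Igf1, the endocrine product of the axis, was the member with the smallest spread between mice and it fell after PCN in WT liver. The probe (A_51_P147942, mm9 chr10, 87393516 to 87393575, plus strand) read 15.59 ± 0.08 in WT CONT (SD, n = 6; lowest 15.48, median 15.57, highest 15.69). In WT PCN the 5 mice read 15.21, 14.95, 15.13, 15.32 and 15.19, a mean of 15.16 ± 0.14 (SD, n = 5). Every WT PCN mouse lay below every WT CONT mouse. The change was -0.44 on the log2 scale (SE 0.08, 95% CI -0.61 to -0.27, limma adjusted p = 0.000588), a 1.36-fold drop that stayed under the 1.5-fold threshold.

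No change of Igf1 was detected in Pxr-/- liver: CONT read 15.45 ± 0.15 (SD, n = 6; lowest 15.23, median 15.41, highest 15.65) and PCN 15.46 ± 0.16 (SD, n = 6; lowest 15.25, median 15.43, highest 15.64). The ranges coincided, and the interval of the change ran from -0.15 to 0.18 (adjusted p = 0.939). The difference between the genotypes' PCN effects was -0.45 (SE 0.11, limma adjusted p = 0.0443), and 1 of the 10 members, Igf1, passed on this interaction, against 1.56% of all genes. At the fold threshold 0 of 10 passed it (background 1.05%), and 3 of 10 had an unadjusted p under 0.05. With 1 array left out at a time the interaction kept its sign, between -0.51 and -0.41, but its adjusted p was above 0.05 in 18 of 23 cases and reached 0.114. It was also above 0.05 in 10 of 13 other alternatives, among them the deposited values (-0.22, adjusted p = 0.489), the processed signal (-0.30, adjusted p = 0.216), median centring (-0.31, adjusted p = 0.167) and washing batch 1 alone (-0.23, adjusted p = 0.574). Igf1 was also 0.31 higher in Pxr-/- PCN than in WT PCN (adjusted p = 0.0217), and that contrast no longer passed without Pxr-/- PCN replicate 5 (0.28, adjusted p = 0.0503) or 6 (0.27, adjusted p = 0.0514) or without WT PCN replicate 2 (0.27, adjusted p = 0.079). It did not pass in 7 of 14 other alternatives either, and was 0.02 with the deposited values (adjusted p = 0.888).

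The Igf1 result depended on the probe and on the scaling. The drop in WT liver was -0.34 within washing batch 1 (adjusted p = 0.0699) and -0.56 within batch 2 (adjusted p = 0.0298). With the log2 values that the authors deposited, which were scaled another way, it was -0.18 (limma adjusted p = 0.165), and there the median gene of all was 0.1165 higher in WT PCN, against -0.0236 here. The dimmer Igf1 probes did not show the drop: A_52_P306327 changed by 0.16 (SE 0.46, adjusted p = 0.839) and A_55_P2085979 by -0.14 (SE 0.35, adjusted p = 0.816), with standard errors several times that of the bright probe. With the mean of all kept Igf1 probes the change in WT liver was -0.1381 (limma adjusted p = 0.728).

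**Figure D2:**
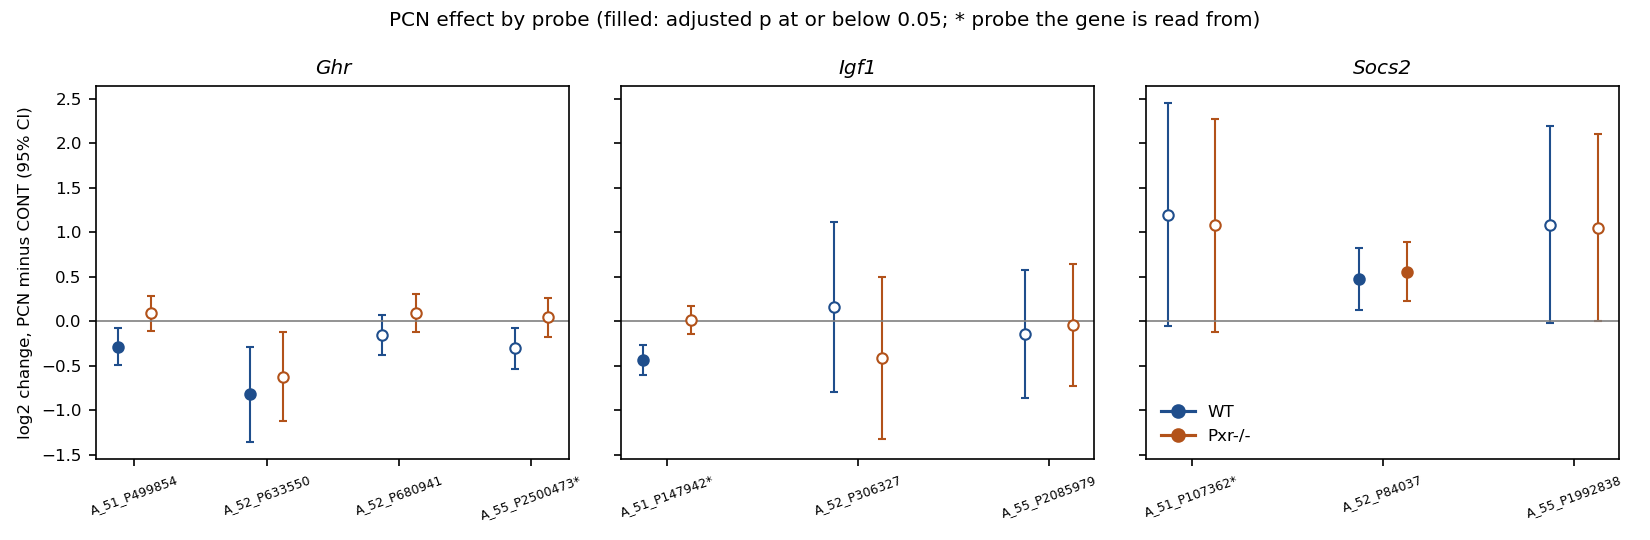
Log2 change after PCN (vertical axis, with its 95% confidence interval) for each kept probe of Ghr, Igf1 and Socs2 in WT and Pxr-/- liver, filled where the limma adjusted p was at most 0.05, with a star on the probe the gene is read from. The bright Igf1 probe has a narrow interval below 0 in WT liver, the other Igf1 probes have wide intervals that span 0, and all 4 Ghr probes read below 0 in WT liver.

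For the binding partners of IGF1 in blood no change passed the test. Igfals, made by hepatocytes, had means of 10.50 ± 0.34 and 10.40 ± 0.29 for WT CONT and WT PCN, and of 10.41 ± 0.31 and 10.81 ± 0.27 for their Pxr-/- counterparts (SD, n = 5 for WT PCN, otherwise n = 6). Its change was -0.10 in WT (limma adjusted p = 0.724) and 0.40 in Pxr-/- liver (SE 0.17, adjusted p = 0.159). Igfbp3, which the liver makes mostly in its non-parenchymal cells, read 11.28 ± 0.19, 11.22 ± 0.42, 11.43 ± 0.45 and 11.20 ± 0.20 in the same order. Its change was -0.06 in WT (adjusted p = 0.851) and -0.23 in Pxr-/- liver (adjusted p = 0.508).

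Of the feedback inhibitors, Cish, Socs2 and Socs3 differed far more from mouse to mouse than the genes above, and Socs1 did not. After the group and batch means were removed, the SD over the mice was 1.32 log2 units for Cish, 1.09 for Socs2 and 0.81 for Socs3, where the median of all genes was 0.1725. Only 8 of the 21056 genes had a larger spread than Cish, 35 a larger one than Socs2 and 97 a larger one than Socs3. Igf1, with 0.128, lay at the other end, with 16188 genes more variable. The spreads of Igfbp3, Socs1 and Igfals were 0.341, 0.320 and 0.313, and those of Ghr, Stat5b and Stat5a were 0.187, 0.187 and 0.179.

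Cish, a direct STAT5 target whose protein blocks the receptor, ranged widely inside every group. WT CONT read 10.13 ± 1.68 (SD, n = 6; lowest 8.27, median 9.71, highest 12.12), which is a 14.5-fold span among mice given only corn oil. WT PCN read 11.77, 9.76, 11.72, 10.82 and 11.04, a mean of 11.02 ± 0.82 (SD, n = 5). Pxr-/- CONT read 10.76 ± 1.1 (SD, n = 6; lowest 9.55, median 10.60, highest 12.14) and Pxr-/- PCN 10.57 ± 1.32 (SD, n = 6; lowest 8.64, median 10.48, highest 12.10). All groups overlapped, and the highest mouse exceeded the lowest by 4.04-fold in WT PCN, 6.06-fold in Pxr-/- CONT and 11-fold in Pxr-/- PCN. The change after PCN was 0.87 in WT (SE 0.73, 95% CI -0.64 to 2.38, limma adjusted p = 0.421) and -0.19 in Pxr-/- liver (adjusted p = 0.913), so the interval in WT liver holds changes of either sign.

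Socs2, the SOCS gene that most limits growth hormone action, was on average higher after PCN in both genotypes without passing the test. WT CONT read 9.37 ± 0.93 (SD, n = 6; lowest 8.12, median 9.32, highest 10.65) and the 5 WT PCN mice read 11.71, 8.60, 9.78, 11.59 and 11.48. Replicates 1, 4 and 5 of WT PCN, which made up washing batch 1 of that group, lay above every WT CONT mouse and replicates 2 and 3, of batch 2, lay inside the WT CONT range. The change was 1.20 (SE 0.60, limma adjusted p = 0.163), and within the batches it was 2.28 (adjusted p = 0.0401) and -0.23 (adjusted p = 0.84).

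Among Pxr-/- mice Socs2 read 9.05 ± 1.12 in CONT (SD, n = 6; lowest 7.33, median 9.09, highest 10.57) and 10.13 ± 1.05 in PCN (SD, n = 6; lowest 8.36, median 10.37, highest 11.04). The change was 1.08 (SE 0.57, adjusted p = 0.286), and here it was -0.30 within batch 1 and 2.46 within batch 2. The ranges overlapped. The dimmer probe A_52_P84037 passed on p in both genotypes, by 0.47 in WT (1.39-fold, limma adjusted p = 0.0464) and 0.56 in Pxr-/- liver (1.47-fold, adjusted p = 0.0402), but was well above background on only 4 to 6 arrays of each group.

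Socs1, which shuts off cytokine and growth hormone signals by blocking JAK kinases, rose after PCN in WT liver. WT CONT read 6.39 ± 0.08 (SD, n = 6; lowest 6.24, median 6.41, highest 6.46) and WT PCN read 7.71, 6.76, 6.42, 7.16 and 7.40, a mean of 7.09 ± 0.51 (SD, n = 5). Replicate 3 lay inside the WT CONT range and the other 4 lay above it. The change was 0.68 (SE 0.18, 1.61-fold, limma adjusted p = 0.00898). It was 1.05 within washing batch 1 (adjusted p = 0.00139) and 0.17 within batch 2 (adjusted p = 0.692), and without WT PCN replicate 1 it was 0.54 (adjusted p = 0.0319), under the fold threshold.

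Among Pxr-/- mice Socs1 read 6.23 ± 0.18 in CONT (SD, n = 6; lowest 5.97, median 6.31, highest 6.44) and 6.80 ± 0.38 in PCN (SD, n = 6; lowest 6.43, median 6.73, highest 7.43). All PCN mice but replicate 5 lay above the CONT range. The change was 0.56 (SE 0.17, 1.48-fold, limma adjusted p = 0.0525). It missed the threshold, and passed it without Pxr-/- PCN replicate 5 (0.66, adjusted p = 0.0281) or 6 (0.62, adjusted p = 0.0426) and, at the same size, without WT PCN replicate 1 or 3 (adjusted p = 0.036 and 0.0323). The effects of PCN in the genotypes were not shown to differ: their difference was 0.12, with a 95% interval from -0.40 to 0.64 (adjusted p = 0.881).

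Socs3, best known as the brake on interleukin 6 signalling through STAT3 and also induced by growth hormone, rose in Pxr-/- liver. CONT read 10.48 ± 0.69 (SD, n = 6; lowest 9.23, median 10.56, highest 11.13) and PCN 12.39 ± 0.70 (SD, n = 6; lowest 11.46, median 12.64, highest 13.09), with no overlap. The change was 1.91 (SE 0.43, 95% CI 1.02 to 2.79, 3.75-fold, limma adjusted p = 0.0105). Within washing batches 1 and 2 it was 1.79 (adjusted p = 0.0686) and 2.02 (adjusted p = 0.175).

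In WT liver Socs3 read 10.93 ± 0.98 in CONT (SD, n = 6; lowest 9.49, median 10.79, highest 12.26), and the PCN mice read 12.67, 11.08, 11.12, 12.85 and 12.35. Replicates 1, 4 and 5 lay above every WT CONT mouse, as for Socs2, and replicates 2 and 3 lay near the middle of the WT CONT range. The change was 1.05 (SE 0.45, 2.07-fold, limma adjusted p = 0.0964), with 1.94 within batch 1 (adjusted p = 0.00582) and -0.07 within batch 2 (adjusted p = 0.965). It passed both thresholds with the deposited values, where it was 1.21 (adjusted p = 0.0484), and without WT CONT replicate 6, where it was 1.35 (adjusted p = 0.0238). The interaction was -0.86 (SE 0.62, adjusted p = 0.573), so a difference between the genotypes was not shown.

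**Figure D3:**
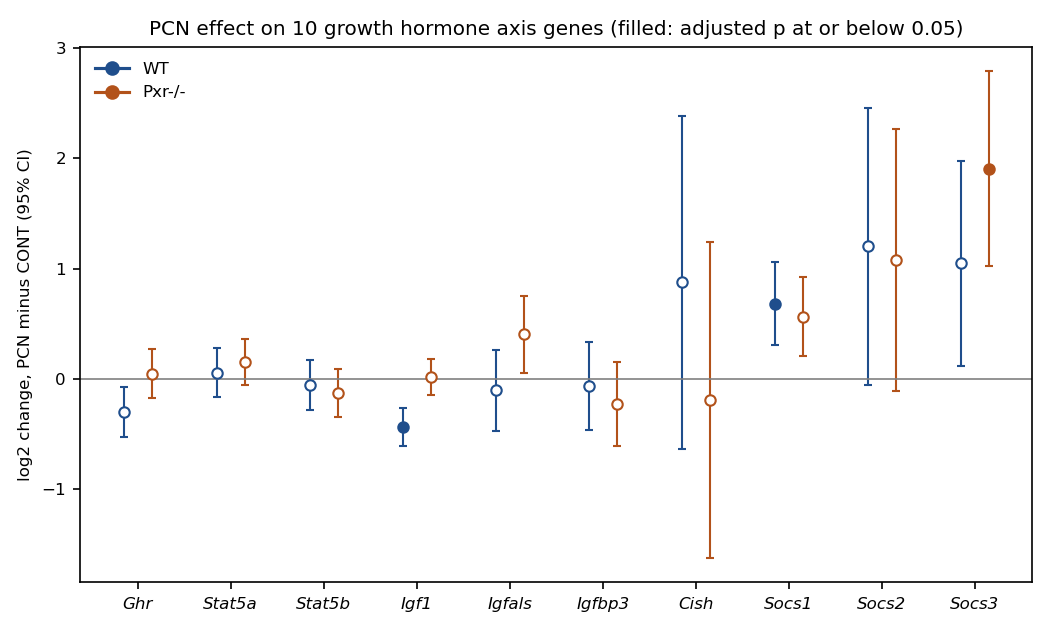
Log2 change after PCN (vertical axis, with its 95% confidence interval) for the 10 genes in WT and Pxr-/- liver, filled where the limma adjusted p was at most 0.05. Intervals are narrowest for Igf1 and widest for Cish, and Igf1 and Socs1 in WT liver and Socs3 in Pxr-/- liver are filled.

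No difference between the genotypes passed the test in vehicle-treated mice. In Pxr-/- CONT against WT CONT, 0 of 10 passed in limma on adjusted p (background 0.494%) or on both thresholds (background 0.309%), and 0 of 10 had an unadjusted p under 0.05. In Pxr-/- PCN against WT PCN, Igf1 and Ghr passed on p as given above (2 of 10, background 8.89%), 3 of 10 had an unadjusted p under 0.05, and 0 of 10 passed both thresholds (background 2.09%).

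Cish and Socs2 moved together from mouse to mouse. Over the 23 arrays, with group and batch means removed, Cish and Socs2 correlated with Pearson r = 0.72 (permutation p = 0.00044, adjusted over 3 pairs 0.0013) and Spearman rho = 0.69 (permutation p = 0.0015, adjusted 0.0045). Without the 2 arrays farthest from the Cish median r was 0.70, and within washing batches 1 and 2 it was 0.79 and 0.63. Permutations shuffled arrays within groups, were two-sided and numbered 100000. For Igf1 neither relation passed: r was 0.30 with Cish (permutation p = 0.2, adjusted 0.2; rho 0.30, p = 0.2) and 0.39 with Socs2 (permutation p = 0.1, adjusted 0.16; rho 0.32, p = 0.18). Without the 2 farthest arrays those values of r were 0.38 and 0.54.

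Over the same arrays the genes most like Cish were Ikzf4 and Onecut1 (each r = 0.95) and Foxa2 (r = 0.94), among 15098 genes with a current name. Onecut1 encodes HNF6, a liver transcription factor known as a growth hormone target. Those most like Socs2 were Phf8 (r = 0.87), Dcps (r = 0.84) and Arhgef10l (r = 0.83), and those most like Igf1 were Pml and Gm17821 (each r = 0.80) and Abhd14a (r = 0.78). These are descriptions over arrays that share the same batches, and carry no p.

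Among 30 measured genes of the wider growth hormone pathway, Onecut1 had the highest r with Cish. The 3 below -0.5 were Bcl6 (-0.89), Irs1 (-0.73) and Igf2r (-0.61), where 3.74% of all genes were. No gene of all had a lower r with Cish than Bcl6, which encodes a repressor that occupies many STAT5 sites in liver and is itself lowered by STAT5. Onecut1 spanned 10.75 to 14.64 over the mice and Bcl6 9.63 to 13.52, each a 14.9-fold range. For neither did the PCN change pass the test: Onecut1 changed by 0.28 in WT (limma adjusted p = 0.821) and -0.13 in Pxr-/- liver (adjusted p = 0.942), and Bcl6 by -1.37 (adjusted p = 0.186) and 0.30 (adjusted p = 0.851). The dim Igf1 probe A_55_P2085979 correlated with Cish at 0.88, while the bright Igf1 probe did so at 0.30.

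**Figure D4:**
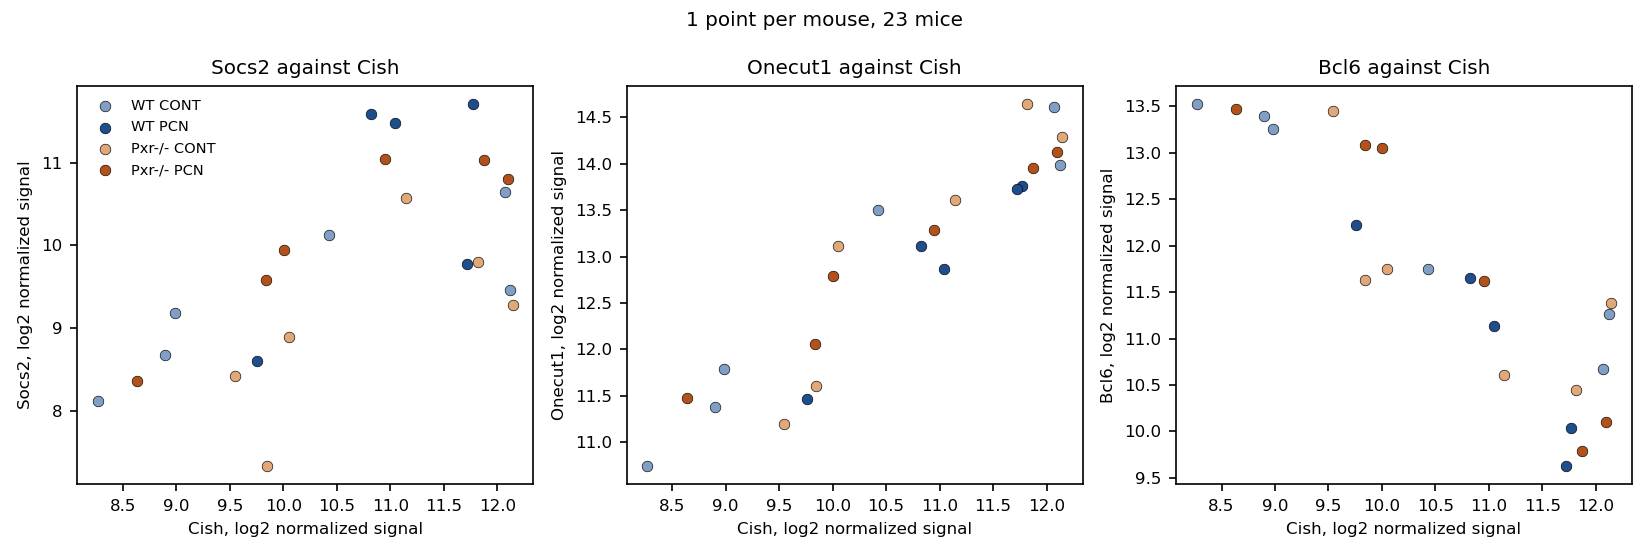
Normalized log2 signal of Socs2, Onecut1 and Bcl6 (vertical axes) against that of Cish (horizontal axes) in the 23 mice, coloured by group and not adjusted for group or batch. Socs2 and Onecut1 are higher and Bcl6 is lower where Cish is higher, and mice of all 4 groups lie along each band.

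The rest of the pathway was described from a list of 35 genes, of which 30 were kept (Igf2, Pappa2, Stc1, Ghrh and Gh were too dim). In WT liver 1 of 30 was called higher and 2 lower (3.79% and 2.39% of all genes), with a list median of 0.0758 against -0.0236 for all genes. Igfbp2, an IGF-binding protein made by hepatocytes, rose from 13.89 ± 0.52 to 14.84 ± 0.14 (1.94-fold, limma adjusted p = 0.000871). Igfbp5, another binding protein, fell from 7.61 ± 0.20 to 6.40 ± 0.24 (-1.22, adjusted p = 0.000989). Irs1, the adaptor that carries insulin and IGF1 receptor signals, fell from 10.49 ± 0.24 to 9.53 ± 0.35 (-0.95, adjusted p = 0.00272).

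After PCN in Pxr-/- liver 3 of these 30 genes were called higher and 1 lower (1.42% and 0.86% of all genes), with a median of 0.1171 against -0.0122. Irs1 fell there as well, by 0.90 (adjusted p = 0.0109). The 3 higher genes, named here after their values were seen, were Stat3 (0.75, limma adjusted p = 0.021, and 0.0518 to 0.0581 without Pxr-/- PCN replicate 2 or 3 or Pxr-/- CONT replicate 1 or 5), the phosphatase gene Ptpn1 (0.78, adjusted p = 0.000489) and Igfbp6 (1.26, adjusted p = 0.0483, above 0.05 in 18 of 23 cases with 1 array left out). In WT liver Stat3 changed by 0.44 (adjusted p = 0.115) and Ptpn1 rose by 0.51 (adjusted p = 0.0024). None of the 30 passed on the interaction in limma (5 of 30 had an unadjusted p under 0.05). Igfbp2 was already 0.93 higher in Pxr-/- CONT than in WT CONT (adjusted p = 0.014), at 14.82 ± 0.22, and changed by 0.14 with PCN there (adjusted p = 0.706).

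Liver genes known to follow the sex-specific growth hormone pattern were taken from 2 further lists. Of 20 male-biased genes, 4 were called lower (2.39% of all genes) and none higher after PCN in WT liver, with a median of -0.2182 against -0.0236 for all genes. Slco1a1, an uptake transporter, fell by 0.90 (limma adjusted p = 0.000697) and Hsd3b5, a steroid dehydrogenase, fell by 1.52 (adjusted p = 0.0174). Keg1 fell by 0.62 (adjusted p = 0.0257) and the complement gene C6 by 0.61 (adjusted p = 0.0267). Hsd3b5 no longer passed without WT PCN replicate 4 (-1.19, adjusted p = 0.0604) or replicate 2 (-1.30, adjusted p = 0.0635). C6 no longer passed without WT PCN replicate 2 or 4 or WT CONT replicate 4 or 6 (-0.57 to -0.45, adjusted p up to 0.0923), and Keg1 without WT PCN replicate 2 or 5 or WT CONT replicate 1 (-0.58 to -0.47, adjusted p up to 0.103). In Pxr-/- liver 1 of the 20, Egfr, was called higher (1.42% of all genes; 0.85, adjusted p = 0.0115) and 1, Ugt2b1, lower (0.86% of all genes; -0.67, adjusted p = 0.0471, above 0.05 in 17 of 23 cases with 1 array left out), with a median of -0.2002. Both are named after their values were seen. None passed on the interaction in limma (2 of 20 had an unadjusted p under 0.05).

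Of 19 female-biased genes on the array 14 were measured (Cyp2b13, Sult2a1, Sult3a1, Hao2 and A1bg were too dim). Of the 14, 7 were called higher in WT liver (3.79% of all genes) and none lower, with a median of 0.9345. Cux2 and Cyp3a44, both among the 7, passed the filter on dim probes only through WT PCN, where they were high. Their entry thus favoured a higher reading, and the count and the median rest partly on it. The counts on this list rest largely on cytochrome P450 genes of the Cyp2b and Cyp3a families, among which PXR has direct targets and whose members share sequence, so that probes cannot fully separate them. Cyp2b9 rose by 6.43 (limma adjusted p = 5.47e-07), Cyp3a16 by 3.16 (adjusted p = 8.07e-10) and Cyp3a41a by 1.61 (adjusted p = 1.45e-06). Cyp3a44 was at least 1.5-fold higher, being not well above background on any WT CONT array (adjusted p = 7.46e-06). These 4 also passed both thresholds on the interaction (4 of 14, where 1.05% of all genes did).

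Outside those families, Atp6v0d2 rose by 1.99 in WT (limma adjusted p = 0.000767) and by 1.28 in Pxr-/- liver (adjusted p = 0.0374, above 0.05 in 8 of 23 cases with 1 array left out). It was the 1 gene of the 14 called in Pxr-/- liver (1.42% of all genes were called higher there), where the median was 0.1282. Cyp2a4 rose by 0.86 in WT liver (adjusted p = 0.018), and no longer passed without WT PCN replicate 2 (0.66, adjusted p = 0.0784) or 3 (0.67, adjusted p = 0.0717). The mean level of Cyp2a4 was 15.71 ± 0.48 in WT CONT and 16.56 ± 0.68 in WT PCN (SD). In Pxr-/- liver it was 17.16 ± 0.34 in CONT and 17.29 ± 0.22 in PCN (SD), both higher than in WT PCN. Cux2, a female-specific transcription factor in liver, was well above background in 4 of 5 WT PCN mice and on no WT CONT array. Its fitted change was 1.49 (limma adjusted p = 0.0253, and above 0.05 without WT PCN replicate 2, 3 or 4). The WT PCN mean of Cux2 was 2.62-fold above the bound for WT CONT. Cux2 was well above background in 1 Pxr-/- CONT mouse and in no Pxr-/- PCN mouse. The bounds took, per WT CONT array, the higher of the dimmest detected signal and the probe's own. For Cux2 and Cyp3a44 the WT PCN mean includes mice not well above background, so neither fold is a strict minimum.

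**Figure D5:**
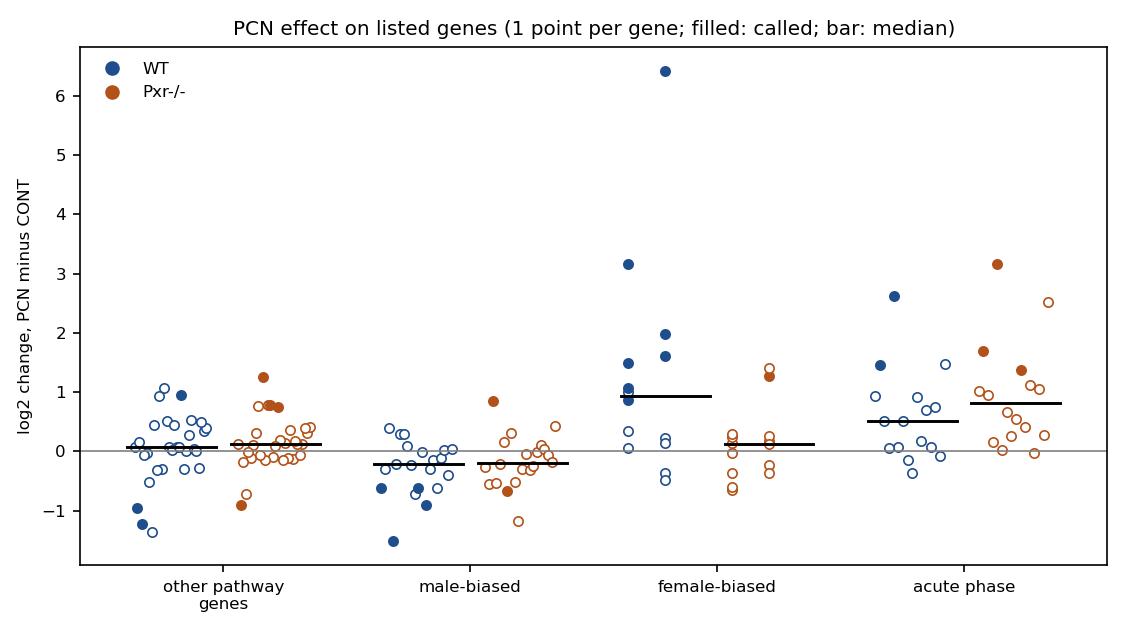
Log2 change after PCN (vertical axis) of every measured gene of the pathway, male-biased, female-biased and acute phase lists in WT and Pxr-/- liver, with 1 point per gene, filled where called, and a bar at the list median. The female-biased list has a WT median of 0.9345 and a Pxr-/- median of 0.1282, while the acute phase medians are 0.5105 and 0.8082. Of the female-biased list, Cux2 and Cyp3a44 passed the filter on dim probes only through WT PCN.

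Some markers of inflammation were higher after PCN. Of 16 acute phase genes, hepatocyte products that answer to interleukin 6 through STAT3, 2 were called higher in WT (Orm3 by 2.62, limma adjusted p = 0.00487, and Il1rn by 1.45, adjusted p = 0.00303) and 3 in Pxr-/- liver (Orm3 by 3.17, adjusted p = 0.00414, Il1rn by 1.69, adjusted p = 0.00342, and Saa3 by 1.37, adjusted p = 0.0234, the last named after its values were seen and up to 0.0706 without Pxr-/- PCN replicate 1 or 4 or Pxr-/- CONT replicate 3 or 5). The share of all genes called higher was 3.79% in WT and 1.42% in Pxr-/- liver. At an unadjusted p under 0.05 in limma, in either direction, the counts were 5 and 10 of 16, with no share of all genes computed to set beside them. The list medians were 0.5105 and 0.8082, against -0.0236 and -0.0122 over all genes. Its mean log2 level ran from 13.84 to 15.89 in WT CONT, 15.58 to 15.93 in WT PCN, 13.76 to 15.29 in Pxr-/- CONT and 15.60 to 16.06 in Pxr-/- PCN. The neutrophil genes S100a8 and S100a9 of a 5-gene blood list were called higher in both genotypes (2.21 and 2.03 in WT, 2.19 and 2.00 in Pxr-/- liver), while its other 3 genes read lower (Alas2 by -0.43 in WT, adjusted p = 0.0422), so that the list medians were -0.2455 and -0.2786. That list's mean level ran from 11.48 to 12.82, 12.22 to 12.90, 11.69 to 12.77 and 12.31 to 13.11 in the same order of groups. Of 8 Kupffer cell markers none was called in limma in either genotype (medians 0.1071 and 0.3337, and 0 of 8 at an unadjusted p under 0.05), with a mean level of 10.68 to 11.72, 10.68 to 12.21, 10.44 to 11.62 and 10.70 to 11.76. Every gene of these 3 lists passed the filter on dim probes. Within washing batches 1 and 2 the WT change of Il1rn was 2.23 (adjusted p = 0.000358) and 0.46 (adjusted p = 0.571), and that of Orm3 was 2.38 and 3.0 (adjusted p = 0.185 in batch 2). The part of these changes in those of Socs1, Socs2 and Socs3 was not tested.

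Markers of other liver cells are given for comparison with the members. The 6 measured hepatocyte markers had a mean level of 16.70 to 17.19 over the 23 mice, with 0 called in WT and 1, Apoa1 (0.62, limma adjusted p = 0.000955), in Pxr-/- liver. Of 8 endothelial and 3 measured lymphocyte markers none was called in either genotype (in limma; 3 and 3 of the endothelial and 1 and 0 of the lymphocyte markers had an unadjusted p under 0.05 in WT and Pxr-/- liver). Of 5 cholangiocyte markers Sox9 was called in WT (0.76, adjusted p = 0.0109) and none in Pxr-/- liver. Of 7 stellate cell markers Col1a1 and Col3a1 were called higher in both genotypes (3.17 and 2.18 in WT, 1.96 and 1.22 in Pxr-/- liver). In WT liver 4 of the 7 read higher and 3 lower (median 0.0787). In Pxr-/- liver all 7 read higher (median 0.1178). Of all genes 3.79% were called higher in WT and 1.42% in Pxr-/- liver.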

How the data were processed

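Total RNA of whole liver from 23 mice was labelled with Cy3 and hybridised to 1-colour Agilent 8x60K mouse arrays by the authors. Agilent Feature Extraction 10.10.1.1, named in the submitters' processing notes, wrote the deposited median signal intensity of 62976 spots per array, of which 59305 were not controls. The authors also deposited a table of log2 values which, per their methods, came from filtered median signals corrected for washing batch and scaled with CrossNorm. It was used only as an alternative. Probe coordinates of the scanner files are those of mm9.

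The deposited intensities were taken to log2 after 2225 spots marked as outliers were set to missing. Spots of a probe were averaged. Probes had to exceed background clearly (the scanner's own flag) on over 50% of the arrays of at least 1 group, which left 32087 of 56605 probes (24518 set aside, 83 values missing) and 21056 genes, and kept probes were quantile normalized. No background was subtracted, so fold changes of dim probes are compressed. Group and washing batch were fitted with limma 3.58.1 in R 4.3.3 over every array (18 residual degrees of freedom), with Benjamini-Hochberg adjustment over all kept probes for each of 5 contrasts. The method was tested on simulated data.

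Every array had the same number of spots, so precision is set by the number of mice. Replicates were separate mice. Alternatives were the processed signal relative to its 75th percentile, normexp background correction with an offset of 50, median centring, other filters, the mean of a gene's probes, slide and replicate blocks, each washing batch alone, the deposited log2 values, and each array left out. The 10 members, the 11 gene lists (138 genes, 135 on the array) and the rules were chosen with earlier results of these data known. Every member is named. Of the pathway, sex-biased and acute phase lists, up to 8 genes each were named if they passed an adjusted p of 0.05 and 1.5-fold in WT liver or the interaction. Gene names were looked up in RefSeq (GRCm38.p6), where 71.7% of names and all 10 members were found. Promoter windows came from the same RefSeq release, and their coordinates were not joined to those of the probes.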

Additional observations from a re-analysis of the deposited data

Results flagged for a closer look

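Of 136 values, each a gene in a group, over 34 genes, 11 had 1 mouse farther from the others than Dixon's 95% limit, where chance gives about 1 in 20. Among the members these were Ghr in Pxr-/- PCN replicate 4, at 13.78 with the nearest mouse at 14.03, and Socs1 in WT CONT replicate 1, at 6.24 with the nearest at 6.40. WT CONT replicate 2 was low for the male-biased genes Hsd3b5 (12.48, nearest 14.26) and C6 (11.46, nearest 12.12). Pxr-/- CONT replicate 2 stood apart for 4 genes: Cux2 was high (8.33, nearest 5.34), Atp6v0d2 was high (8.22, nearest 6.97), Il1rn was high (7.40, nearest 6.48) and Cyp3a16 was low (12.76, nearest 13.40). C6 was high in Pxr-/- PCN replicate 1 (12.47, nearest 11.78), Egfr was high in Pxr-/- PCN replicate 2 (15.40, nearest 14.89) and Cyp3a16 was low in WT CONT replicate 6 (11.91, nearest 12.84).

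Of these 34 genes, 5 passed the interaction test in limma at an adjusted p of 0.05, as did 1.56% of all genes. Those that are not members were among the 34 because they had been called in these data, so the counts cannot be compared. The Cyp3a44 value rests on signals near background, as it was well above it on 3 of 5 WT PCN arrays and on none of the other groups. The effect in WT minus that in Pxr-/- liver was -0.45 for Igf1 (adjusted p = 0.0443, but above 0.05 in 18 of 23 omissions of an array and in 10 of 13 other alternatives, with -0.22 and 0.489 for the deposited values), 5.02 for Cyp2b9 (adjusted p = 0.00266), 1.43 for Cyp3a41a (adjusted p = 0.00155), 1.09 for Cyp3a44 (adjusted p = 0.00148) and 2.92 for Cyp3a16 (adjusted p = 1.78e-06).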

How the results depend on the processing

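Over all results and single-array omissions, 1428 values kept their direction and their call on p and fold together, 66 lost the call, 3 gained one and 21 changed sign. Under the 14 other alternatives the numbers were 804, 68, 5 and 30. A value under the fold threshold can keep that status while its adjusted p crosses 0.05, as the report gives for Ghr, Igf1 and Socs1. Of the 18 genes of the pathway, sex-biased, acute phase and blood lists called in WT liver, 14 kept the call in washing batch 1 alone and 7 in batch 2 alone, and none changed sign. Of the 12 in Pxr-/- liver, 1 and 2 kept it, again with no change of sign. The count of members called in WT liver, 1 here, was 2 with the deposited values, 0 with normexp, 3 in washing batch 1 alone, 0 in batch 2 alone and 0 to 2 with an array left out. In Pxr-/- liver it was 2 with the processed signal, 0 in either batch alone and 1 to 2 with an array left out. In Pxr-/- PCN against WT PCN it was 1 in batch 1 alone. A batch alone holds fewer arrays, and the members called in WT liver in batch 1 alone were Socs1, Socs2 and Socs3. With normexp Socs1 was 0.52 (limma adjusted p = 0.00956), under the fold threshold. The causes of these shifts were not tested. Replicate numbers were not treated as pairs of mice. Of 33 same-number pairs 12 correlated over 0.1, with a range from -0.186 to 0.6 and a median of -0.00873. Pairs of different numbers and groups had a median of -0.0249. Of the 23 arrays 8 matched their own number best, and the number that would do so without pairing was not computed. With the replicate block the WT count was 2, Socs3 being added (1.16, adjusted p = 0.0412).

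Sign changes fell on differences that had not passed, apart from the Igf1 interaction, 0.0066 with the mean of a gene's probes. With that mean, Ghr was -0.0966 and Igf1 -0.1446 in Pxr-/- liver, Stat5a was -0.0896 in WT, and Stat5b was 0.0109 in Pxr-/- liver with an interaction of -0.0553. With the deposited values, Stat5b was 0.0937, Igfals 0.0521 and Igfbp3 0.0941 in WT, and the Stat5a interaction was 0.0165. In batch 1, WT values were -0.0741 for Stat5a, 0.1977 for Stat5b and 0.2055 for Igfbp3, Pxr-/- values were -0.1063 for Igf1 and -0.3015 for Socs2, and the Socs3 interaction was 0.1435. In batch 2, WT values were 0.0842 for Igfals, -0.2309 for Socs2 and -0.0724 for Socs3, Cish in Pxr-/- liver was 1.1278, and interactions were 0.1007 for Stat5a, -0.3929 for Stat5b, -0.1951 for Igfbp3, -0.8706 for Cish, -0.6814 for Socs1 and -2.6892 for Socs2. Igf1 in Pxr-/- liver was -0.0204 with the processed signal and -0.0202 with median centring. The Socs1 interaction was -0.0333 with the processed signal and the Socs2 interaction -0.148 with slide as a fixed block. With an array left out, signs changed within these ranges: -0.493 to 0.2378 for Cish, -0.0323 to 0.0701 for Igf1 (both Pxr-/-), -0.2281 to 0.0473 for Igfbp3, -0.026 to 0.1301 for Stat5a, -0.1256 to 0.0261 for Stat5b (all WT), and -0.0218 to 0.2866 for Socs1 and -0.3406 to 0.5959 for Socs2 (interactions). The Socs3 call in Pxr-/- liver held with every array left out (adjusted p 0.00544 to 0.0312).

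Before normalization WT PCN arrays were 0.142 brighter on the log2 scale than WT CONT arrays. With the deposited scaling the difference of the median gene, Pxr-/- PCN minus WT PCN, was -0.1935. Of the genes called in WT liver 61.3% were higher here and 84.3% with the deposited values. The correlation within slides was 0.00951. A planned comparison of the SOCS and STAT5 protein sequences was not run.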
